A study of Mus musculus with 47 samples.

Results

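Brown adipose tissue of C57Bl6 mice carrying a tumour and given a control antibody was set against brown adipose tissue of mice without a tumour, over all genes with enough reads to be tested. The comparison rests on 11 of the 47 libraries of the series, 5 labelled IgG1 and 6 labelled NTB, chosen by their labels alone. IgG1 mice carried HT1080 tumours, a line of human fibrosarcoma cells, and received the control immunoglobulin IgG1 at 3 mg/kg each week from the day of inoculation. A further 6 brown fat libraries came from 3P10 mice, with HT1080 tumours as well and with the antibody 3P10, which binds GFRAL, the GDF15 receptor, dosed on the same schedule. NTB mice bore no tumour. Their labels name no antibody, so a difference between IgG1 and NTB joins the tumour and the antibody. All tissue was taken on day 21. The labels give neither the age nor the sex of the mice, nor whether their immune system was intact, and they do not tie libraries to animals, so p-values measure the spread between these samples. Library numbers run group by group, so order of preparation and group cannot be told apart.

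Brown fat burns lipid to make heat. Noradrenaline from sympathetic nerves binds beta-adrenergic receptors on the adipocyte, cAMP rises, and stored triglyceride is hydrolysed. The fatty acids both feed the mitochondria and activate UCP1, the inner membrane protein that lets protons back without making ATP. The deiodinase DIO2 turns thyroxine into the active hormone inside the cell and amplifies the response. GDF15 is a circulating factor that lowers food intake through GFRAL, a receptor of the hindbrain.

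Each library was read from the 3' ends of transcripts, so its values are compared between libraries and not between genes. IgG1 libraries held 897348 to 1364639 counts and NTB libraries 798886 to 1345290, and a gene without a count could lie at up to 2.24 to 3.42 CPM in IgG1 and 2.22 to 3.68 CPM in NTB (3 counts, counting error only). CPM is counts per 1e6 counts of the library after TMM scaling. The ribosomal precursor Rn45s took 4.66 to 6.58% of counts in IgG1 and 3.83 to 6.16% in NTB. Both groups expressed brown fat markers, with Ucp1 at 2794 to 3220.1 CPM in IgG1 and 3393 to 4586 CPM in NTB libraries and Cidea at 2431 to 2749 CPM in IgG1 and 2484 to 3281 CPM in NTB libraries.

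Of 8711 genes tested, 259 were called (2.97%), that is, had an adjusted p under 0.05 (Benjamini-Hochberg) in edgeR's quasi-likelihood test. In IgG1 mice 162 were higher (1.86% of those tested) and 97 lower (1.11%). The changes were mostly small. The median log2 fold change was 0.61 among the genes called higher and -0.70 among those called lower, against -0.01 over all genes tested, and 47 called genes moved at least 2-fold (24 higher and 23 lower). The IgG1 and NTB values did not overlap for 107 called genes, 59 higher and 48 lower, and such separation occurred in 2.57% of all genes tested. In bulk tissue, fewer cells of a type and less RNA per cell cannot be told apart.

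**Figure D1:**
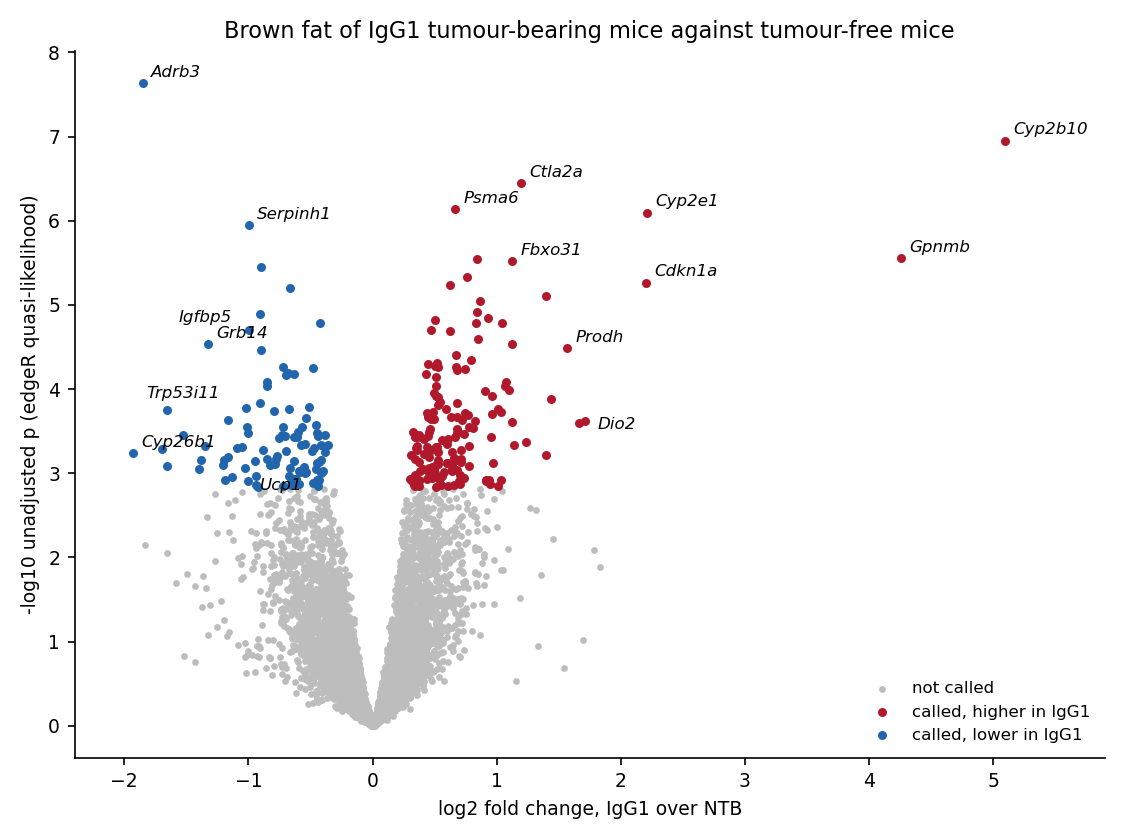
Each point is 1 of the 8711 genes tested in brown fat, with the log2 fold change of IgG1 over NTB on the x axis and -log10 of the unadjusted p of edgeR's quasi-likelihood test on the y axis. Red points are the 162 genes called higher and blue points the 97 called lower; Adrb3 (-1.85) has the smallest p and Cyp2b10 (5.09) the largest fold change.

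Libraries of the IgG1 group were not alike. On the first principal component of the 11 libraries, which held 26.4% of the variance, IgG1 replicate 2 scored 11.8, within the NTB range of 6.01 to 19.1, while the other IgG1 libraries scored -5.004 to -30.2. Markers of skeletal muscle, which lies next to the fat pad, also varied: the 15 markers summed to 214 to 2496 CPM in IgG1 and 890 to 3247 CPM in NTB libraries, and 0 of the 15 were called. IgG1 replicates 3, 4 and 5 held the lowest sums. With a muscle score as a covariate, 99 genes were called, 94 of them among the 259. Without IgG1 replicate 5 there were 34 calls, and without IgG1 replicate 2 there were 554. NTB replicate 4 was the highest NTB library for several genes that were higher in IgG1, and without it and IgG1 replicate 2 there were 594 calls. Whether the group labels of these 2 libraries are right was not tested, and the 259 calls and every overlap given below take them as labelled. The names below include 93 called genes, and 24 of them kept their call with each library left out in turn. Without 1 library, the calls that held among the 93 numbered 62, 93, 43, 49 and 25 for IgG1 replicates 1 to 5 and 58 to 85 for the NTB replicates. With the muscle score 51 of the 93 held.

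**Figure D2:**
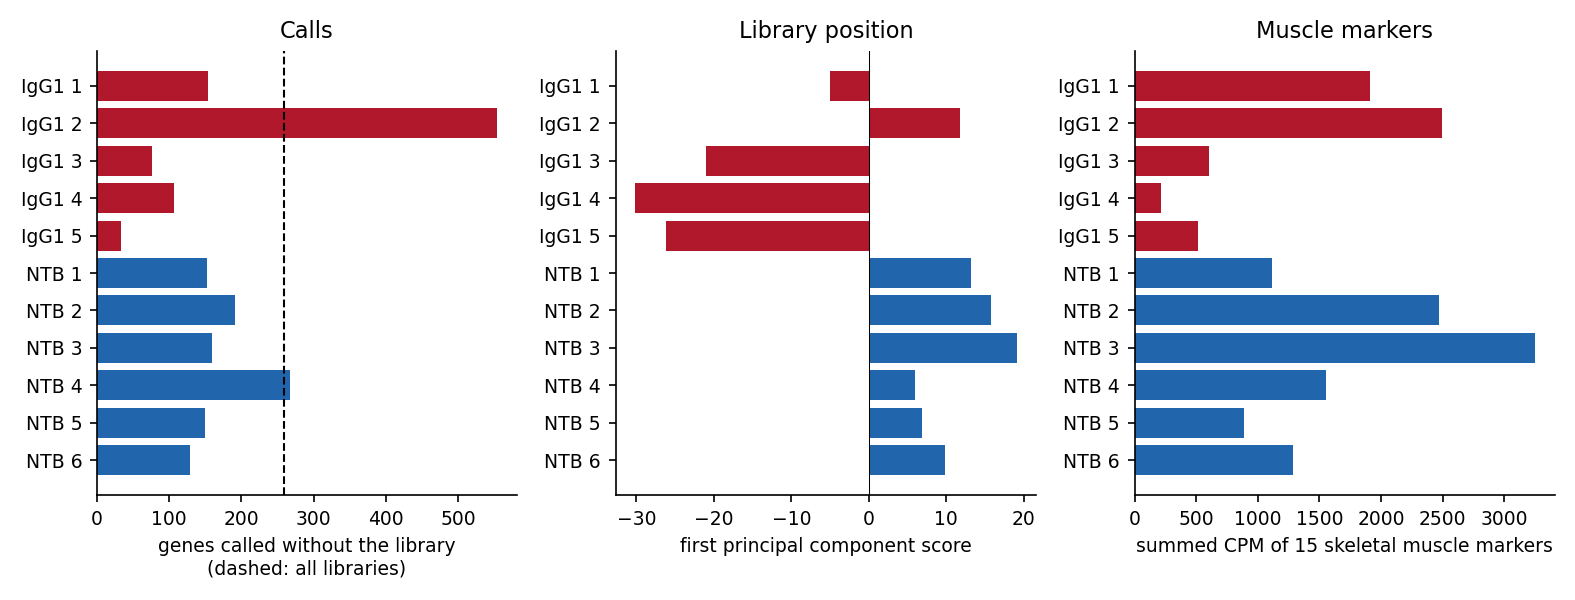
Bars give, for each library left out (IgG1 in red above NTB in blue), the number of genes called, and, for each library, its score on the first principal component and the summed CPM of 15 skeletal muscle markers. The dashed line marks the 259 calls with all libraries; calls numbered 34 without IgG1 replicate 5 and 554 without IgG1 replicate 2, the IgG1 library that lies among the NTB libraries on the component.

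Beta-adrenergic receptor transcripts were lower in the brown fat of IgG1 mice. Adrb3, the beta-3 receptor through which noradrenaline acts on adipocytes, stood at 148, 104, 70.7, 79.5 and 69.5 CPM in IgG1 replicates 1 to 5, against 219 to 548 CPM (median 323) in NTB libraries. Every IgG1 library lay below every NTB library. Its log2 fold change was -1.85 ± 0.22 (SE), adjusted p = 0.000201, and the call held with each library left out and with the muscle score. Adrb1, the beta-1 receptor, had 38.6, 87.97, 51.3, 57.8 and 47.8 CPM in IgG1 replicates 1 to 5 and 72.8 to 108 CPM (median 89.7) in NTB libraries. IgG1 replicate 2 alone reached the NTB range (log2 fold change -0.66 ± 0.18 SE, adjusted p = 0.045). The Adrb1 call was lost when any 1 of IgG1 replicates 1, 3, 4 and 5 and NTB replicates 1, 2, 3, 5 and 6 was left out, with an adjusted p of up to 0.152, and also with the muscle score and with the IgG1 and NTB libraries fitted alone.

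Downstream of the receptors, Pde4d, a phosphodiesterase that hydrolyses cAMP, rose to 312 ± 104 CPM in IgG1 (mean ± SD, n = 5), against 183 ± 36.02 CPM in NTB (n = 6). Its log2 fold change was 0.77 ± 0.17 (SE), adjusted p = 0.023. Rapgef4, a cAMP-binding exchange factor that was picked out after its values were seen, fell to 8.72 ± 4.05 CPM in IgG1, against 19.4 ± 5.88 in NTB (log2 fold change -1.17 ± 0.27 SE, adjusted p = 0.0239). The Pde4d call was lost without IgG1 replicate 3 or 5 (adjusted p up to 0.101), that of Rapgef4 without IgG1 replicate 3, 4 or 5 (up to 0.0988), and both with the muscle score. Of the 23 tested members of the list of adrenergic receptors and cAMP signalling, Pde4d was called higher and Adrb3 and Adrb1 lower, and the median of the list was 0.00. Gnas, the stimulatory G protein, and the protein kinase A subunits Prkaca, Prkacb, Prkar1a, Prkar2a and Prkar2b had log2 fold changes of -0.01, 0.12, 0.06, 0.03, 0.22 and 0.00, and none passed the test.

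Ucp1 was lower in IgG1 brown fat and Dio2 higher. Ucp1 stood at 2794, 3220.1, 2884, 2889.5 and 2803 CPM in IgG1 replicates 1 to 5, against 3393 to 4586 CPM (median 3761) in NTB libraries, and the groups did not overlap. The Ucp1 log2 fold change was -0.41 ± 0.11 (SE), adjusted p = 0.0359. With any 1 of IgG1 replicates 1, 3, 4 and 5 and NTB replicates 2, 5 and 6 left out the Ucp1 call was lost, at an adjusted p of up to 0.107, and with the muscle score it was lost too. For Dio2, IgG1 replicates 1 to 5 gave 1411, 717, 1765, 1437 and 2559 CPM and NTB libraries 221 to 1027 CPM (median 366). The lowest IgG1 value, that of replicate 2, and the highest NTB value, 1027 CPM in replicate 4, overlapped. The Dio2 log2 fold change was 1.72 ± 0.39 (SE), adjusted p = 0.024, and the call was lost without IgG1 replicate 3 or 5 (adjusted p up to 0.0988) and with the muscle score.

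The regions around the start sites of Dio2 and Ucp1 are shown because both genes are known to answer to cAMP and their transcripts moved in opposite directions here. The sequences run from 250 bases before to 50 bases after the RefSeq start (GRCm38.p6), at chr12:90738989-90739288 on the minus strand for Dio2 and chr8:83290098-83290397 on the plus strand for Ucp1. Capitals mark TGACG or its reverse complement CGTCA, the core of the cAMP response element.
Dio2: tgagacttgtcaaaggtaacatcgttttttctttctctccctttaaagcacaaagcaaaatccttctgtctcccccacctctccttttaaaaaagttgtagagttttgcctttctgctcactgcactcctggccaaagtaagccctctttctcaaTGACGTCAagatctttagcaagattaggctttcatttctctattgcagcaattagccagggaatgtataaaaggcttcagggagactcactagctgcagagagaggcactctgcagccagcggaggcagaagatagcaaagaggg
Ucp1: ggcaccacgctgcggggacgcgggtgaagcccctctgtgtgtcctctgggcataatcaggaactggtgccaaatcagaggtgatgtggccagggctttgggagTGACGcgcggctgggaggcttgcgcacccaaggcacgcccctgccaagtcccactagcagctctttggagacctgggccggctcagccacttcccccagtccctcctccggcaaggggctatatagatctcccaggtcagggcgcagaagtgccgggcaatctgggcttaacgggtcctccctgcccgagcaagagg
In Dio2 the copies TGACG and CGTCA overlap in 1 run that begins 95 bases before the start. The Ucp1 window holds 1 TGACG, which begins 147 bases before the start. The motif on either strand is common: it occurs in 20.8% of the 32851 RefSeq promoters of this length, in 32.5% of the 8634 that matched genes tested in brown fat, in 33.1% of the 157 that matched genes called higher and in 22.3% of the 94 that matched genes called lower. A match describes the letters and is not evidence of binding.

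Other thermogenic genes gave no common direction. Of 30 tested members of the list, 3 were called higher (Dio2, Kcnk3 and Elovl6) and 2 lower (Ucp1 and Fabp3), with a median of 0.00. Kcnk3, a potassium channel of the brown adipocyte membrane, had 864 ± 115 CPM in IgG1 and 667 ± 62.2 CPM in NTB (log2 fold change 0.37 ± 0.10 SE, adjusted p = 0.045). Elovl6, a fatty acid elongase, had 1781 ± 129 CPM in IgG1 and 1376 ± 199.7 CPM in NTB (log2 fold change 0.37 ± 0.10 SE, adjusted p = 0.0484). Fabp3, a carrier of fatty acids in the cytosol, fell to 1033 ± 148 CPM in IgG1, against 1599 ± 345 CPM in NTB (log2 fold change -0.63 ± 0.16 SE, adjusted p = 0.0363). Each of these 3 calls was lost when any 1 of IgG1 replicates 1, 3 and 5 and NTB replicates 5 and 6 was left out, and those of Kcnk3 and Elovl6 also with the muscle score. The elongase Elovl3 (0.90), the coactivator Ppargc1a (0.24), the regulator Prdm16 (-0.66) and the lipid droplet protein Cidea (-0.15) did not pass the test, with adjusted p from 0.125 to 0.433.

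**Figure D3:**
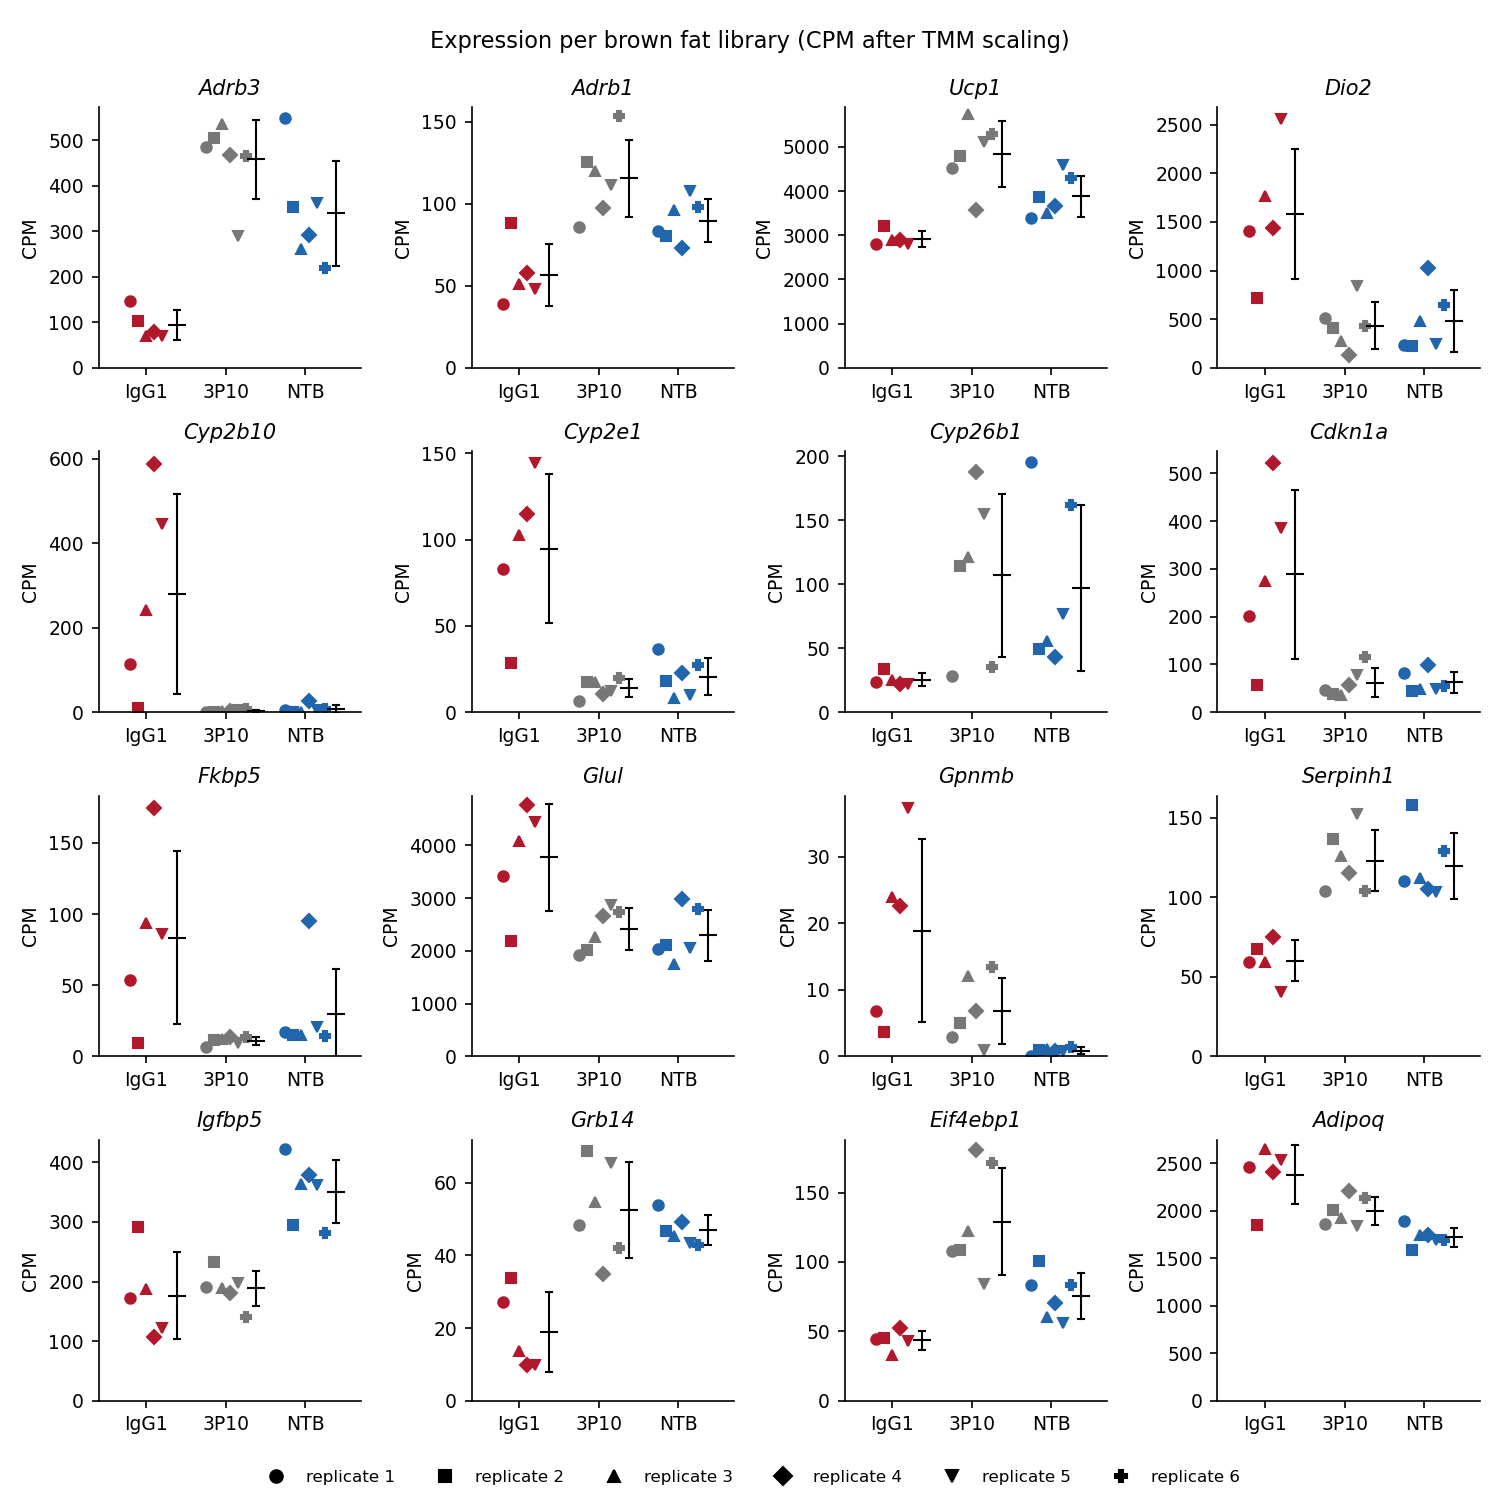
Points give the CPM after TMM scaling of 16 genes in each brown fat library of the IgG1 (red), 3P10 (grey) and NTB (blue) groups, with 1 marker shape per replicate number and with the mean and SD as black bars, cut at 0. Adrb3 lies lower and Cyp2b10, Cyp2e1 and Cdkn1a higher in IgG1, where replicate 2 (square) sits nearest the NTB libraries for Cyp2b10 (10.1 CPM) and Cdkn1a (56.8 CPM).

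The largest rise of the comparison was that of Cyp2b10, a cytochrome P450 known as a drug-inducible enzyme of mouse liver. It stood at 115, 10.1, 243, 588 and 446 CPM in IgG1 replicates 1 to 5, against 1.01 to 26.2 CPM (median 4.96) in NTB libraries. IgG1 replicate 2 lay below NTB replicate 4, which was the highest NTB library. The log2 fold change was 5.09 ± 0.67 (SE), adjusted p = 0.000487, on 1573 reads in IgG1 and 54 in NTB. Cyp2e1, the P450 that oxidises ethanol and ketone bodies, had 82.9, 28.4, 103, 115 and 144 CPM in IgG1 replicates 1 to 5 and 8.44 to 36.8 CPM (median 20.6) in NTB libraries. Again IgG1 replicate 2 was the single library within the NTB range, and the log2 fold change was 2.22 ± 0.33 (SE), adjusted p = 0.0014. Fmo1, a flavin monooxygenase, rose to 329.8 ± 99.1 CPM in IgG1, against 172 ± 25.9 in NTB (log2 fold change 0.93 ± 0.17 SE, adjusted p = 0.00629), and its relative Fmo2 to 83.1 ± 32.9 CPM, against 38.3 ± 11.99 (log2 fold change 1.12 ± 0.26 SE, adjusted p = 0.0243). The calls of Cyp2b10, Cyp2e1 and Fmo1 held with each library left out and with the muscle score. That of Fmo2 was lost without IgG1 replicate 3, 4 or 5 or NTB replicate 6 (adjusted p up to 0.0933) and with the muscle score.

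A pair of retinoid genes were lower. Cyp26b1, a P450 that degrades retinoic acid, had the largest fall of the comparison. Its values were 23.9, 33.9, 25.1, 21.7 and 21.7 CPM in IgG1 replicates 1 to 5 and 43.4 to 195 CPM (median 66.4) in NTB libraries, without overlap (log2 fold change -1.93 ± 0.48 SE, adjusted p = 0.0326). The NTB libraries spread over a wide range, and the Cyp26b1 call was lost when any 1 of IgG1 replicates 1, 3, 4 and 5 and NTB replicates 1 and 6 was left out (adjusted p up to 0.102) and with the muscle score. Rbp4, the carrier of retinol, fell to 319.8 ± 109 CPM in IgG1, against 575 ± 146 CPM in NTB (log2 fold change -0.85 ± 0.18 SE, adjusted p = 0.0147), a call lost without IgG1 replicate 5 alone (adjusted p = 0.0679). Of the 19 tested members of the list of cytochrome P450 and xenobiotic genes, 4 were called higher and 1, Cyp26b1, lower, with a median of 0.24. Of the 11 tested retinoid genes 0 were called higher and 2 lower, with a median of -0.02.

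Cdkn1a, which encodes the cell cycle inhibitor p21, was among the largest rises. It stood at 202, 56.8, 275, 522 and 386 CPM in IgG1 replicates 1 to 5, against 44.6 to 98.99 CPM (median 51.99) in NTB libraries. The library that overlapped the NTB range was again IgG1 replicate 2. The log2 fold change was 2.21 ± 0.37 (SE), adjusted p = 0.00387, and the call held with each library left out and with the muscle score. In the list of p53 and growth arrest genes (15 tested, median 0.07), Trp53inp1, a stress protein induced by p53, also rose, to 102 ± 38.3 CPM in IgG1, against 54.5 ± 20.9 in NTB (log2 fold change 0.92 ± 0.25 SE, adjusted p = 0.045), while Cdkn1c, which encodes the related inhibitor p57, fell to 100.2 ± 35.4 CPM, against 167 ± 27.5 (log2 fold change -0.75 ± 0.18 SE, adjusted p = 0.0275). The call of Trp53inp1 was lost when any 1 of IgG1 replicates 1, 3, 4 and 5 and NTB replicates 2, 3, 5 and 6 was left out (adjusted p up to 0.166), and that of Cdkn1c likewise for IgG1 replicates 1, 4 and 5 and NTB replicates 1 and 6 (adjusted p up to 0.102). With the muscle score the Trp53inp1 call was lost and that of Cdkn1c held. Of 8 tested cell cycle genes, 0 were called.

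Several brakes and carriers of insulin and growth factor signalling changed. Grb14, an adaptor that inhibits the insulin receptor, had 27.3, 33.9, 13.7, 9.94 and 9.72 CPM in IgG1 replicates 1 to 5 and 42.8 to 53.98 CPM (median 46.02) in NTB libraries, with no overlap (log2 fold change -1.33 ± 0.26 SE, adjusted p = 0.00885). Igfbp5, a binding protein of insulin-like growth factors, had 173, 291, 188, 108 and 122 CPM in IgG1 replicates 1 to 5 and 282 to 422 CPM (median 363) in NTB libraries, where only IgG1 replicate 2 reached the NTB range (log2 fold change -0.99 ± 0.19 SE, adjusted p = 0.00686). Its relative Igfbp4 rose to 191 ± 39.8 CPM in IgG1, against 107 ± 24.9 CPM in NTB (log2 fold change 0.85 ± 0.16 SE, adjusted p = 0.00815). These 3 calls held with each library left out and with the muscle score. They were the called genes among 20 tested of the insulin and IGF list, whose median was 0.02; Irs2, the insulin receptor substrate, had a log2 fold change of 0.98 (adjusted p = 0.241). Socs2, a suppressor of growth hormone signalling picked out after its values were seen, rose to 69.3 ± 30.04 CPM in IgG1, against 25.2 ± 11.2 in NTB (log2 fold change 1.44 ± 0.31 SE, adjusted p = 0.0194), a call lost without IgG1 replicate 5 (adjusted p = 0.0988). Eif4ebp1, the repressor of cap-dependent translation that mTOR inactivates, fell to 43.6 ± 6.91 CPM in IgG1, against 75.6 ± 16.7 CPM in NTB, without overlap (log2 fold change -0.78 ± 0.20 SE, adjusted p = 0.0358), and lost its call when any 1 of IgG1 replicates 1, 3, 4 and 5 and NTB replicates 1, 2 and 6 was left out (adjusted p up to 0.102) and with the muscle score. It was the 1 gene called among 15 tested mTOR brakes and stress response genes.

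Of 23 tested ubiquitin ligases of atrophy and FoxO targets, 3 were called, all higher, although the median of the list was -0.05. Fbxo31, a substrate receptor of SCF ubiquitin ligases, had 134, 95.3, 159.6, 199 and 218 CPM in IgG1 replicates 1 to 5 and 62.9 to 96.5 CPM (median 69.6) in NTB libraries. IgG1 replicate 2 lay just under the highest NTB library, and the log2 fold change was 1.12 ± 0.18 (SE), adjusted p = 0.00292. Fbxo21, another F-box protein, rose to 187 ± 28.9 CPM in IgG1, against 123 ± 21.1 in NTB (log2 fold change 0.61 ± 0.15 SE, adjusted p = 0.028), and Bnip3, a receptor for the removal of mitochondria, to 1094 ± 297 CPM, against 694 ± 158 (log2 fold change 0.66 ± 0.17 SE, adjusted p = 0.0358). The call of Fbxo31 held with each library left out and with the muscle score, and those of Fbxo21 and Bnip3 were each lost when any 1 of IgG1 replicates 3 and 5 and NTB replicate 3 was left out, among others (adjusted p up to 0.121), and that of Bnip3 also with the muscle score. Among 31 tested proteasome subunits 1 was called. Psma6, an alpha ring subunit, rose to 392 ± 56.2 CPM in IgG1, against 247 ± 17.9 CPM in NTB, without overlap (log2 fold change 0.67 ± 0.10 SE, adjusted p = 0.0014), and kept its call with each library left out. The proteasome median was 0.18, with 23 of the 31 above 0.

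Of 20 tested glucocorticoid-responsive genes, 2 were called, both higher. The median log2 fold change of the list was 0.50, with 17 of the 20 above 0, where 48.5% of all genes tested lay above 0. The called members were Cdkn1a and Glul. Glul, glutamine synthetase, had 3420.1, 2191, 4074, 4759.6 and 4440.2 CPM in IgG1 replicates 1 to 5 and 1755 to 2988 CPM (median 2090.4) in NTB libraries. IgG1 replicate 2 fell within the NTB range, and the log2 fold change was 0.72 ± 0.16 (SE), adjusted p = 0.024. The Glul call was lost without IgG1 replicate 3, 4 or 5 (adjusted p up to 0.0988) and with the muscle score. Fkbp5, a co-chaperone of the glucocorticoid receptor and one of its standard target genes, had 53.4, 9.16, 93.5, 174 and 85.96 CPM in IgG1 replicates 1 to 5 and 14.04 to 94.9 CPM (median 16.2) in NTB libraries. IgG1 replicate 2 was below every NTB library, and NTB replicate 4 was above 3 of the 4 other IgG1 libraries, and the gene did not pass (log2 fold change 1.45 ± 0.48 SE, adjusted p = 0.104). Zbtb16, another target, showed the same NTB library high, at 254 CPM, where the other NTB libraries had 20.7 to 109 CPM and IgG1 libraries 90.9 to 231 CPM (log2 fold change 0.81 ± 0.43 SE, adjusted p = 0.345). Per1 (0.55) and the metallothionein Mt1 (0.44) did not pass, with adjusted p of 0.455 and 0.147.

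Of 18 tested clock genes, 2 were called higher and 1 lower (median 0.03). Usp2, a deubiquitinase under circadian control, had 152, 86.1, 168, 155 and 189 CPM in IgG1 replicates 1 to 5 and 51.7 to 144 CPM (median 65.9) in NTB libraries, the highest being NTB replicate 4 (log2 fold change 0.96 ± 0.21 SE, adjusted p = 0.0185). Rora, a nuclear receptor of the clock, rose to 151 ± 19.3 CPM in IgG1, against 110.5 ± 10.6 CPM in NTB (log2 fold change 0.45 ± 0.11 SE, adjusted p = 0.0272). The Usp2 call was lost without IgG1 replicate 3 or 5 (adjusted p up to 0.0845), and that of Rora when any 1 of IgG1 replicates 3, 4 and 5 and NTB replicates 2, 5 and 6 was left out (up to 0.0988). Dbp, a transcription factor driven directly by the core clock, fell to 30.7 ± 15.5 CPM in IgG1, against 57.7 ± 6.83 CPM in NTB (log2 fold change -0.94 ± 0.26 SE, adjusted p = 0.0478), a call that held without IgG1 replicate 1 or 2 and was lost when any 1 of the other libraries was left out (adjusted p up to 0.156) or the muscle score was added. The time of day of harvest is not given. A pair of cold-inducible RNA-binding proteins, seen only after the values were known, were both higher. Rbm3 had 19.3, 35.7, 33.1, 34.3 and 43.4 CPM in IgG1 replicates 1 to 5 and 10.1 to 20.5 CPM (median 16.6) in NTB libraries (log2 fold change 1.06 ± 0.22 SE, adjusted p = 0.0156). Cirbp had 60.2, 68.7, 61.6, 39.8 and 97.2 CPM in IgG1 replicates 1 to 5 and 26.4 to 42.8 CPM (median 40.5) in NTB libraries (log2 fold change 0.77 ± 0.18 SE, adjusted p = 0.0261). IgG1 replicate 1 of Rbm3 and IgG1 replicate 4 of Cirbp overlapped the NTB range. Both calls were lost without IgG1 replicate 5 (adjusted p up to 0.0835 and 0.114), and that of Cirbp also without IgG1 replicate 3.

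Among genes of the adipocyte itself, Adipoq, the hormone adiponectin, had 2460.3, 1850.1, 2651, 2414 and 2539 CPM in IgG1 replicates 1 to 5 and 1587 to 1888 CPM (median 1716) in NTB libraries. IgG1 replicate 2 was the single library that overlapped, and the log2 fold change was 0.47 ± 0.09 (SE), adjusted p = 0.00686, held with each library left out. Adipocyte identity genes had 1 called higher, Adipoq, and 1 lower, Rbp4, of 21 tested (median 0.10). Pnpla2, the lipase that opens triglyceride breakdown, rose to 1915 ± 331 CPM in IgG1, against 1469.5 ± 58.4 CPM in NTB (log2 fold change 0.38 ± 0.09 SE, adjusted p = 0.0272), as the 1 called member of 20 tested lipolysis and lipid droplet genes. The hormones Lep, at 0 to 9.04 CPM in IgG1 and 2.11 to 24.3 CPM in NTB (log2 fold change -1.58 ± 0.63 SE, adjusted p = 0.178), and Retn, at 15.6 to 95.4 CPM in IgG1 and 24.3 to 46.6 CPM in NTB (log2 fold change 0.86 ± 0.29 SE, adjusted p = 0.115), did not pass.

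Mitochondrial beta-oxidation genes had 3 of 26 tested members called, all higher, with a median of 0.09. Acadm, the medium-chain acyl-CoA dehydrogenase, rose to 3727 ± 495 CPM in IgG1, against 2736 ± 255 CPM in NTB (log2 fold change 0.45 ± 0.10 SE, adjusted p = 0.0235). Echs1, the short-chain enoyl-CoA hydratase, had 1587 to 1671 CPM in IgG1 libraries and 1082 to 1429 CPM in NTB libraries, without overlap (log2 fold change 0.35 ± 0.08 SE, adjusted p = 0.0272). Acot2, a thioesterase of the mitochondrial matrix, rose to 237 ± 61.4 CPM in IgG1, against 151 ± 32.2 CPM in NTB (log2 fold change 0.64 ± 0.17 SE, adjusted p = 0.0394). Mlxipl, the carbohydrate-sensing transcription factor ChREBP, fell to 422 ± 50.4 CPM in IgG1, against 569 ± 87.8 CPM in NTB (log2 fold change -0.43 ± 0.11 SE, adjusted p = 0.0367), and Fdft1, squalene synthase, rose to 29.2 ± 9.09 CPM, against 14.1 ± 2.89 (log2 fold change 1.03 ± 0.28 SE, adjusted p = 0.045). The calls of Pnpla2 and of these 5 genes were each lost when any 1 of 4 to 9 libraries was left out, IgG1 replicates 3 and 5 among them, with adjusted p of up to 0.154 for Fdft1, and all 6 were lost with the muscle score. Gys2, the liver-type glycogen synthase, picked out after its values were seen, had 42.9 ± 13.5 CPM in IgG1 and 21.9 ± 6.28 CPM in NTB (log2 fold change 0.94 ± 0.26 SE, adjusted p = 0.0477), and its call was lost without 9 of the 11 libraries in turn and with the muscle score.

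Genes of cardiolipin, the lipid of the inner mitochondrial membrane, and of amino acid breakdown were noticed after the values were seen. Crls1, cardiolipin synthase, had 401, 351, 339, 409 and 388 CPM in IgG1 replicates 1 to 5 and 245 to 306 CPM (median 262) in NTB libraries, with no overlap (log2 fold change 0.50 ± 0.09 SE, adjusted p = 0.00629) and with its call held with each library left out. Tamm41, which makes the CDP-diacylglycerol precursor, rose to 56.3 ± 6.39 CPM in IgG1, against 37.3 ± 2.66 CPM in NTB, also without overlap (log2 fold change 0.59 ± 0.13 SE, adjusted p = 0.0223). Prodh, which oxidises proline, had 15.9, 12.8, 21.7, 39.8 and 32.9 CPM in IgG1 replicates 1 to 5 and 4.06 to 14.7 CPM (median 7.82) in NTB libraries (log2 fold change 1.57 ± 0.30 SE, adjusted p = 0.00945). Aldh1l1, an enzyme of folate one-carbon metabolism, had 32.9, 16.5, 30.8, 49.7 and 47.1 CPM in IgG1 replicates 1 to 5 and 11.6 to 17.2 CPM (median 12.5) in NTB libraries (log2 fold change 1.40 ± 0.24 SE, adjusted p = 0.00458). For both, IgG1 replicate 2 was the lowest IgG1 library and the single library within the NTB range. Shmt1, the cytosolic serine hydroxymethyltransferase (0.71), Got1, the cytosolic aspartate aminotransferase (0.72), and Cdo1, cysteine dioxygenase (0.50), were called higher too. The list of branched-chain amino acid breakdown, drawn up by function but with earlier results of these data known, had 2 of 20 tested genes called, both higher. Ivd, isovaleryl-CoA dehydrogenase, stood at 103 ± 14.2 CPM in IgG1 and 65.1 ± 9.53 CPM in NTB (log2 fold change 0.67 ± 0.13 SE, adjusted p = 0.0108). Pccb, a propionyl-CoA carboxylase subunit, stood at 449 ± 32.6 CPM in IgG1 and 364 ± 29.5 CPM in NTB (log2 fold change 0.30 ± 0.08 SE, adjusted p = 0.045). The Pccb call was lost without 9 of 11 libraries, and with the muscle score those of Pccb, Shmt1 and Got1 were lost. The list median was 0.04. Without IgG1 replicate 5 the calls of Tamm41, Prodh, Ivd, Shmt1, Got1 and Cdo1 were lost, and that of Aldh1l1 held with each library left out. With 1 library left out in turn, Shmt1 kept its call in 2 of 11 fits, Got1 in 5, Cdo1 in 9, and Tamm41, Prodh and Ivd in 10.

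Gpnmb, a glycoprotein of lysosomes and of lipid-loaded macrophages, was higher in IgG1. It stood at 6.82, 3.67, 23.9, 22.6 and 37.4 CPM in IgG1 replicates 1 to 5, against 0 to 1.48 CPM (median 0.925) in NTB libraries, on 106 reads in IgG1 and 6 in NTB. The groups did not overlap, and IgG1 replicates 1 and 2 were the lowest of their group. Each NTB library held at most 2 reads, under the floor of 3 counts, so the size of the fitted log2 fold change, 4.26 ± 0.69 (SE), adjusted p = 0.00292, rests on few reads, and the gene passed the count filter through the libraries of tumour-bearing mice. Ctss, the lysosomal protease cathepsin S, had 45.4, 31.2, 46.7, 61.5 and 41.9 CPM in IgG1 replicates 1 to 5 and 13.1 to 30.7 CPM (median 21.3) in NTB libraries, without overlap (log2 fold change 1.08 ± 0.23 SE, adjusted p = 0.0147). Both calls held with each library left out and with the muscle score. Atp6v0d1, a subunit of the pump that acidifies lysosomes, rose to 86.8 ± 16.2 CPM in IgG1, against 62.3 ± 9.96 CPM in NTB (log2 fold change 0.48 ± 0.13 SE, adjusted p = 0.0414), a call lost without 8 of 11 libraries in turn and with the muscle score. These 3 were the called members of 26 tested autophagy and lysosome genes, with a median of 0.16. Smpd1, the lysosomal acid sphingomyelinase picked out after its values were seen, was higher as well (log2 fold change 0.68 ± 0.15 SE, adjusted p = 0.0208). The Smpd1 call was lost without IgG1 replicate 4 or 5 (adjusted p up to 0.0633).

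Markers of macrophages were read beside these genes. The 15 listed markers summed to 132 to 210 CPM in IgG1 and 98.99 to 148 CPM in NTB libraries, and of 6 tested, 0 were called (median 0.18, 5 of 6 above 0). Itgam, which encodes CD11b, had a log2 fold change of 0.69 (adjusted p = 0.39). The scavenger receptor gene Cd163 was too low to be tested, at 7.33 to 24.99 CPM in IgG1 and 2.03 to 7.36 CPM in NTB libraries. None of the 15 markers was at 0 throughout. The part of macrophage content in the rise of Gpnmb and Ctss was not tested.

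Serpinh1 and 3 matrix genes were lower, although no collagen passed. Serpinh1, the collagen chaperone of the endoplasmic reticulum, had 59.1, 67.8, 59.3, 75.02 and 40.4 CPM in IgG1 replicates 1 to 5 and 104 to 158 CPM (median 111) in NTB libraries. Every IgG1 library was below every NTB library. The log2 fold change was -0.996 ± 0.15 (SE), adjusted p = 0.00164, a call that held with each library left out and with the muscle score. P4ha1, a prolyl hydroxylase of collagen, fell to 16.2 ± 4.09 CPM in IgG1, against 33.3 ± 8.82 CPM in NTB (log2 fold change -1.02 ± 0.23 SE, adjusted p = 0.0223). Ogn, a small proteoglycan (log2 fold change -1.09 ± 0.27 SE, adjusted p = 0.0313), and Smoc2, a calcium-binding matrix protein (log2 fold change -0.95 ± 0.24 SE, adjusted p = 0.0361), were lower too, and these 3 were picked out after their values were seen. The P4ha1 call was lost without IgG1 replicate 5 (adjusted p = 0.081), that of Ogn when any 1 of IgG1 replicates 1, 4 and 5 and NTB replicates 1, 3, 5 and 6 was left out (up to 0.116) and with the muscle score, and that of Smoc2 when any 1 of IgG1 replicates 1, 3, 4 and 5 and NTB replicates 1, 2, 5 and 6 was left out (up to 0.125). Of 27 tested collagen and matrix genes, 0 were called, with a median log2 fold change of -0.33 and 8 of the 27 above 0. The lowest was Lum, lumican, at 11.2 ± 3.25 CPM in IgG1 and 21.99 ± 8.002 CPM in NTB (log2 fold change -0.98 ± 0.31 SE, adjusted p = 0.0926). The 10 fibroblast and preadipocyte markers summed to 602 to 894 CPM in IgG1 and 684 to 840 CPM in NTB libraries, with 0 of 8 tested called. Among 21 tested chaperones of the endoplasmic reticulum, Serpinh1 was the 1 called, and the median was 0.03.

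Of 7 further called genes picked out after their values were seen, 4 were lower and 3 higher. Nos3, endothelial nitric oxide synthase, fell to 26.4 ± 5.55 CPM in IgG1, against 42.9 ± 8.04 CPM in NTB, without overlap (log2 fold change -0.70 ± 0.17 SE, adjusted p = 0.0272). Notch3, a receptor of vessel wall cells, fell to 30.1 ± 6.64 CPM, against 48.04 ± 5.85, also without overlap (log2 fold change -0.68 ± 0.15 SE, adjusted p = 0.0223). Endothelial markers summed to 832 to 1594 CPM in IgG1 and 1137 to 1743 CPM in NTB libraries, with 0 of 9 tested called, and the receptor Tek had a log2 fold change of -0.49 (adjusted p = 0.086). Cxcl14, a chemokine secreted by brown adipocytes, had 10.2, 56.8, 12.5, 6.33 and 14.95 CPM in IgG1 replicates 1 to 5 and 52.7 to 98.99 CPM (median 57.7) in NTB libraries (log2 fold change -1.70 ± 0.42 SE, adjusted p = 0.0315). IgG1 replicate 2 alone was within the NTB range. Pmepa1, an inhibitor of TGF-beta signalling, had 349.8, 889, 912, 315 and 283 CPM in IgG1 replicates 1 to 5 and 831 to 1397 CPM (median 1071) in NTB libraries, with IgG1 replicates 2 and 3 in the NTB range (log2 fold change -1.03 ± 0.27 SE, adjusted p = 0.0389). In the opposite direction, Stim1, the calcium sensor of the endoplasmic reticulum (log2 fold change 0.67 ± 0.14 SE, adjusted p = 0.0123), Micu3, a regulator of the mitochondrial calcium uniporter (log2 fold change 0.52 ± 0.10 SE, adjusted p = 0.0123), and Syn2, a synaptic vesicle protein (log2 fold change 1.66 ± 0.38 SE, adjusted p = 0.0249), were higher. Of the calls of these 7 genes, that of Micu3 held with each library left out, the other 6 were lost without at least 1 library, and those of Nos3, Pmepa1 and Syn2 were lost with the muscle score. With 1 library left out in turn, Pmepa1 kept its call in 4 of 11 fits, Cxcl14 in 6 and Stim1 in 10.

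Lists of broad cell functions held few called genes. None of 36 tested subunits of respiratory complex I, 21 enzymes of the tricarboxylic acid cycle, 19 genes of glucose uptake and glycolysis or 46 cytosolic ribosomal proteins was called, and their medians were 0.04, 0.06, 0.03 and -0.05. Over complexes II to V 1 of 39 was called, Atp5l, a subunit of ATP synthase (log2 fold change 0.52 ± 0.13 SE, adjusted p = 0.0311), and over mitochondrial ribosomal proteins 1 of 45, Mrps18a (log2 fold change 0.50 ± 0.13 SE, adjusted p = 0.0395). Sod3, the extracellular superoxide dismutase, was the 1 gene called of 23 tested for oxidative stress defence (log2 fold change 0.60 ± 0.15 SE, adjusted p = 0.0308). Interferon response genes had a median of -0.25, with 4 of 17 above 0 and 1 called, Ifi27, at 1181 ± 97.2 CPM in IgG1 and 1601 ± 202 CPM in NTB (log2 fold change -0.44 ± 0.10 SE, adjusted p = 0.0272). Heat shock proteins had a median of -0.24 with 0 of 16 called. Acute phase and STAT3 response genes had a median of 0.22 with 0 of 11 called. The calls of Atp5l, Mrps18a, Sod3 and Ifi27 were all lost without IgG1 replicate 5 and with the muscle score. With 1 library left out in turn, they held in 5, 3, 6 and 7 of 11 fits. In all, 785 of the 987 listed genes were tested, 46 were called, and 213 of the 259 called genes belong to no list. Over all 8711 genes tested, 2.97% were called. The lists were chosen with earlier results of these data known, so the number called among their members is no test of the lists.

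**Figure D4:**
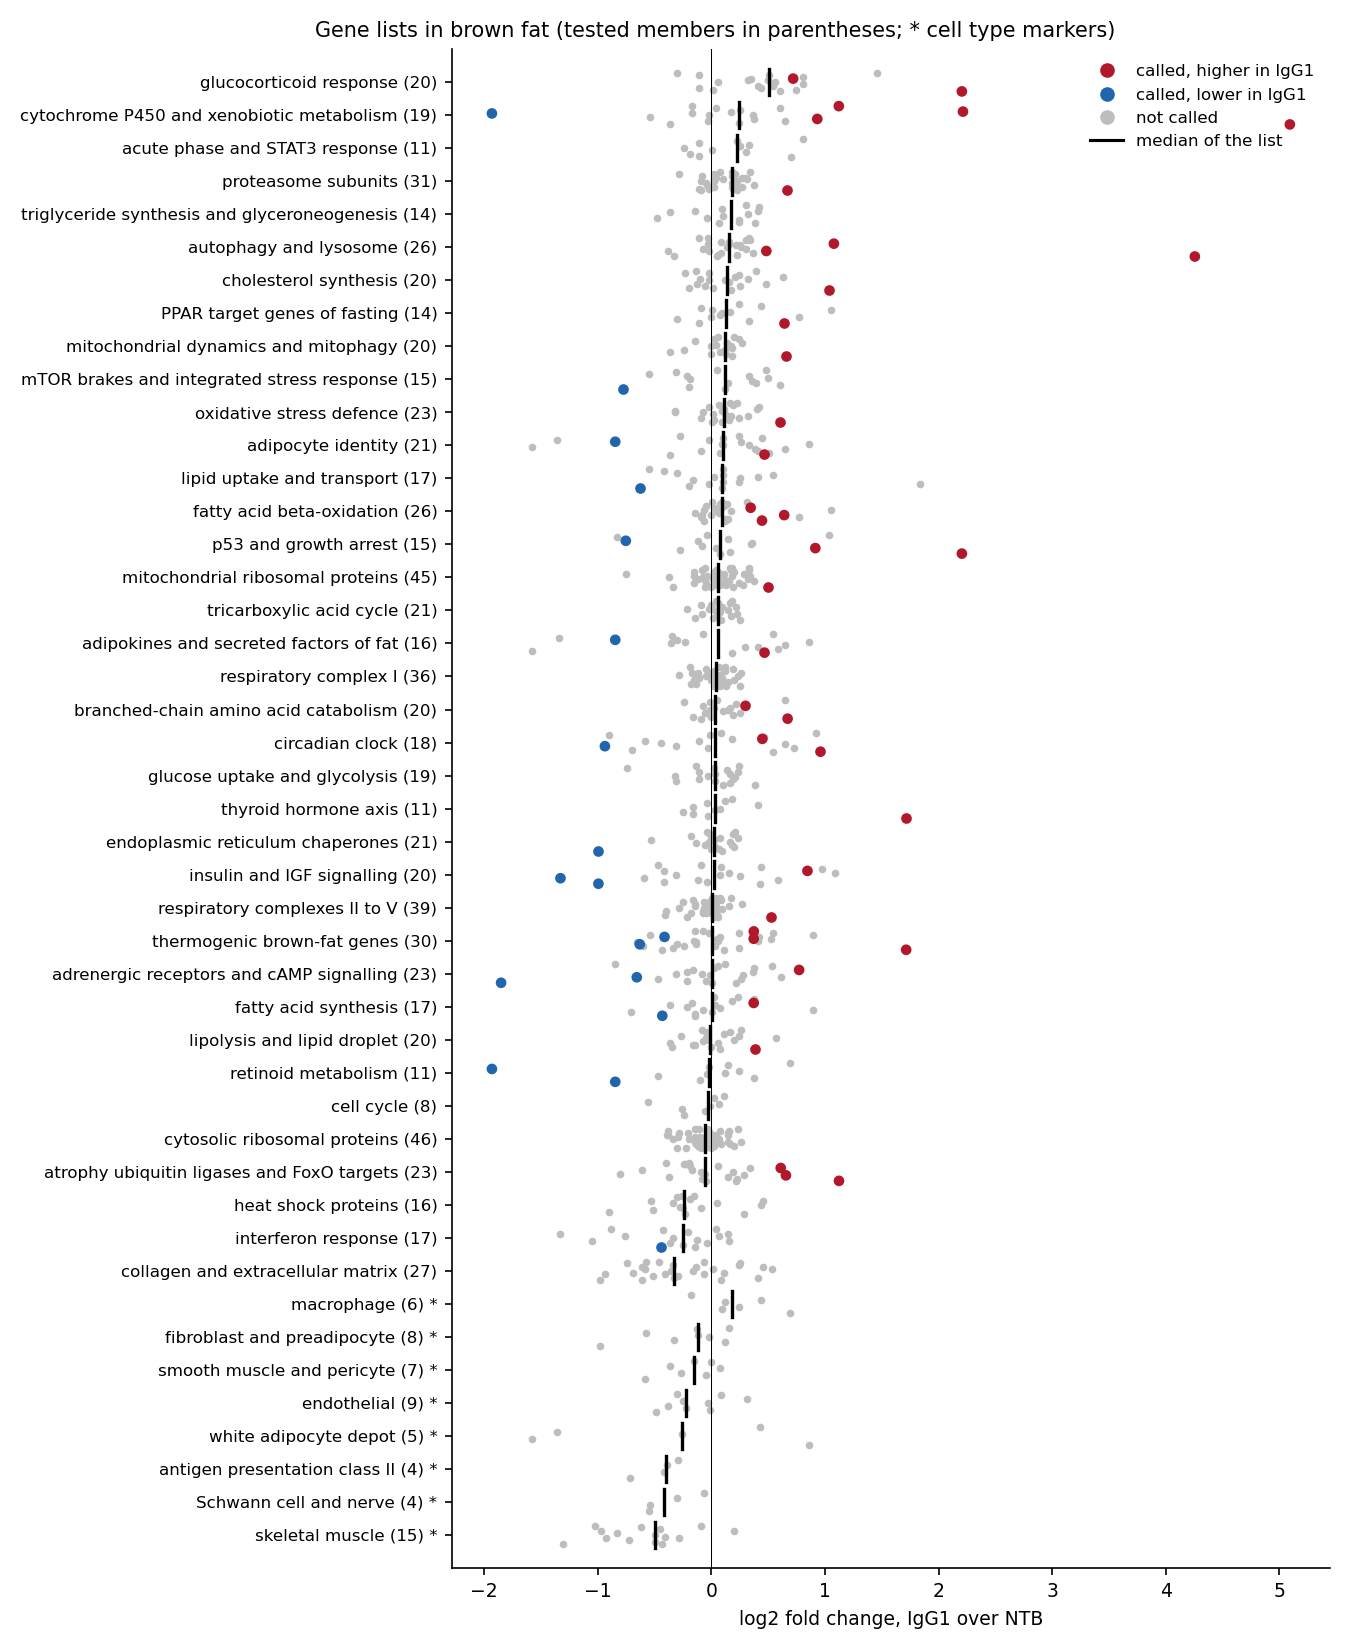
Each point is a tested member of a gene list with at least 4 tested members in brown fat, placed by its log2 fold change of IgG1 over NTB, with called members in red (higher) or blue (lower) and the median of each list as a black bar. Medians run between 0.50 for glucocorticoid response genes and -0.50 for skeletal muscle markers.

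Among called genes with non-overlapping groups and a mean of at least 5 CPM, the largest rises beyond those above include Ctla2a, an inhibitor of cysteine proteases, with 74.97, 52.2, 61.6, 72.3 and 108 CPM in IgG1 replicates 1 to 5 and 27.4 to 44.99 CPM (median 30.04) in NTB libraries (log2 fold change 1.19 ± 0.17 SE, adjusted p = 0.00103). Eda, the signalling ligand ectodysplasin, had 35.2, 22.9, 25.1, 28.02 and 28.4 CPM in IgG1 replicates 1 to 5 and 8.999 to 19.0001 CPM (median 10.97) in NTB libraries (log2 fold change 1.12 ± 0.22 SE, adjusted p = 0.00885). Selenbp1, a selenium-binding oxidase (0.87), Msrb1, a methionine sulfoxide reductase (0.84), Gchfr, the feedback regulator of GTP cyclohydrolase (0.83), and Gda, guanine deaminase (0.76), had adjusted p of 0.00496, 0.00619, 0.00629 and 0.00365. The calls of these 6 genes held with each library left out. Tcn2, the vitamin B12 carrier transcobalamin (0.91), Nova1, a splicing regulator (1.04), 1700040L02Rik (0.96), Polr2i, a subunit of RNA polymerase II (0.81), Stk19 (0.75) and Abcc1, an export pump (0.74), were also higher, and their calls were lost without IgG1 replicate 5, with adjusted p of up to 0.154 for Abcc1, whose call was lost with the muscle score too. With 1 library left out in turn, Abcc1 kept its call in 2 of 11 fits and the others in 9 or 10.

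The largest falls by the same rule began, after Cyp26b1 and Adrb3, with Trp53i11, which had 11.4, 11.9, 2.28, 4.52 and 5.98 CPM in IgG1 replicates 1 to 5 and 17.6 to 34.4 CPM (median 19.2) in NTB libraries (log2 fold change -1.66 ± 0.37 SE, adjusted p = 0.0224). Hspa12a (-1.66), Dlgap1, a scaffold protein of synapses (-1.53), Cxxc4, an inhibitor of Wnt signalling (-1.38), Pcdh18, a protocadherin (-1.35), Bbs9, a subunit of the BBSome of cilia (-1.20), Sp100, a nuclear body protein (-1.16), Sipa1l2 (-1.005), Dtna, alpha-dystrobrevin (-0.93), and Zxda (-0.91) had adjusted p from 0.0208 to 0.0486. Several lay near the floor of the libraries: Dlgap1 had 0 to 4.52 CPM in IgG1 and 5.91 to 12.3 CPM in NTB libraries. Dlgap1, Hspa12a and Sp100 had IgG1 means of 2.69, 2.47 and 4.61 CPM. Cxxc4, Pcdh18, Bbs9, Trp53i11 and Dtna had IgG1 means of 4.43, 6.13, 7.12, 7.21 and 7.55 CPM. All these genes passed the count filter through NTB or 3P10 libraries, so the size of their fitted falls rests on few IgG1 reads. Ano1, a calcium-activated chloride channel, fell to 29.1 ± 6.19 CPM in IgG1, against 53.9 ± 10.4 CPM in NTB (log2 fold change -0.91 ± 0.16 SE, adjusted p = 0.00621), and was the 1 gene of this group to keep its call with each library left out. The others lost it without IgG1 replicate 5, and the Dtna call was lost without 10 of the 11 libraries in turn. Bbs9 kept its call in 3 of 11 such fits, Hspa12a and Sp100 in 4, and Zxda in 10. With the muscle score the calls of Hspa12a, Dlgap1, Cxxc4, Pcdh18, Bbs9, Sipa1l2 and Dtna were lost.

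The GDF15 pathway itself was at or near the floor in brown fat. Gfral had 0 counts in all 11 libraries, which on counting error alone allows up to 2.24 to 3.42 CPM in IgG1 and 2.22 to 3.68 CPM in NTB. Eno1 of the glycolysis list and Rps27 of the ribosomal protein list also had 0 counts in all 11 libraries. A count of 0 by itself therefore does not show that a transcript is absent. Gdf15 had at most 4.52 CPM in IgG1 and 2.51 CPM in NTB libraries, and the GFRAL partner kinase Ret at most 0.916 CPM in IgG1 and 2.51 CPM in NTB, and none was tested.

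None of the tested markers of other cells was called. Smooth muscle and pericyte markers summed to 726 to 963 CPM in IgG1 and 924 to 1136 CPM in NTB libraries. Of the 7 tested, 1 lay above 0 (median -0.15). Of 4 tested Schwann cell and nerve markers, 0 lay above 0 (median -0.42). The same held for 4 tested markers of class II antigen presentation (median -0.40), while the macrophage median was 0.18. The part of cell content was not tested. Lymphocyte markers summed to at most 2.75 CPM in IgG1 and 4.91 CPM in NTB libraries, with none high enough to be tested. Cd4 and Cd8a were at 0 throughout, which by itself does not show absence. Neutrophil markers summed to 6.33 to 19.4 CPM in IgG1 and 6.69 to 23.2 CPM in NTB. Epithelial markers summed to at most 21.99 CPM in IgG1 and reached 88.3 CPM in 1 NTB library. Red cell markers summed to 10.5 to 32.1 CPM in IgG1 and 37.6 to 58.1 CPM in NTB libraries, without overlap, the globin genes being listed at 0 in all of them. Alas2, the heme synthesis enzyme of red cells, had 17.7 ± 8.23 CPM in IgG1 and 32.3 ± 4.86 CPM in NTB (log2 fold change -0.87 ± 0.24 SE, adjusted p = 0.0519) and did not pass.

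The 3P10 libraries, which share the tumour with IgG1, are given as levels only, since any comparison with them would use the same IgG1 or NTB libraries. For Adrb3, IgG1 libraries held 69.5 to 148 CPM, 3P10 libraries 289.7 to 535 CPM and NTB libraries 219 to 548 CPM. For Cyp2b10 the ranges were 10.1 to 588 CPM in IgG1, 0.721 to 8.06 CPM in 3P10 and 1.01 to 26.2 CPM in NTB. Serpinh1 had 40.4 to 75.02 CPM in IgG1, 104 to 153 CPM in 3P10 and 104 to 158 CPM in NTB. In all 3 genes the 3P10 range overlapped that of NTB and not that of IgG1. These genes were picked for a difference between IgG1 and NTB, so the place of 3P10 is no test of its antibody. Other called genes gave other orders. Eif4ebp1 had means of 43.6 CPM in IgG1, 129 CPM in 3P10 and 75.6 CPM in NTB. For Ctss the means were 45.3, 34.5 and 21.8 CPM in the same order. Igfbp5 differed in this respect, with 108 to 291 CPM in IgG1, 139.7 to 233 CPM in 3P10 and 282 to 422 CPM in NTB libraries, the 3P10 range lying within that of IgG1 and below that of NTB. Gpnmb stood at 3.67 to 37.4 CPM in IgG1, 1.02 to 13.4 CPM in 3P10 and 0 to 1.48 CPM in NTB, and 3P10 overlapped both.

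The same contrast was fitted apart in white fat and in gastrocnemius muscle, with 5 IgG1 and 5 NTB libraries each, made with another kit and read more deeply. Of the 259 brown fat genes, 52 were also called in white fat (20.1% of the brown fat list and 4.18% of the 1245 white fat calls), where 8.64% of all genes tested were called. Only 776 of the 1245 white fat calls were tested in brown fat, so the others could not be shared. All but 1 of the 52 had the same sign. Cyp2b10 had log2 fold changes of 5.09 in brown fat and 4.54 in white fat (adjusted p there 0.025), where it stood at 0.844 to 32.3 CPM in IgG1 and 0.202 to 1.31 CPM in NTB. Cyp2e1 had 1.12 in white fat (0.0301), Fbxo31 1.41 (0.00658), Prodh 1.43 (0.0315), Glul 1.10 (0.0124), Usp2 1.61 (0.00658), Pnpla2 0.58 (0.0263) and Acot2 1.03 (0.0035), each with its adjusted p there in parentheses. Serpinh1 (-1.41) and Igfbp5 (-1.27) fell there as well, with adjusted p of 0.0226 and 0.0289. Adrb3 (-0.74, adjusted p = 0.255) and Cdkn1a (-0.56, adjusted p = 0.327) did not pass in white fat. The gene of opposite sign was S100a4, a calcium-binding protein. It was higher in brown fat (log2 fold change 1.01 ± 0.28 SE, adjusted p = 0.0484), a call lost when any 1 of IgG1 replicates 1, 3 and 4 and NTB replicates 1, 2, 3, 4 and 5 was left out or the muscle score was added, and lower in white fat, with a log2 fold change of -1.13.

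In muscle, where 5.6% of genes tested were called, 23 of the 259 were called too (8.88% of the brown fat list and 3.09% of the 744 muscle calls), 17 with the same sign and 6 with the opposite one. Only 436 of the 744 muscle calls were tested in brown fat. Same-sign genes included Prodh (1.42 in muscle), Glul (1.22), Bnip3 (1.16), Trp53inp1 (1.07), Fbxo31 (0.52) and Serpinh1 (-0.997), with adjusted p there from 0.00137 to 0.0359. Dio2 had a log2 fold change of 1.72 in brown fat and -1.89 in muscle, where it stood at 0.797 to 2.76 CPM in IgG1 and 4.06 to 5.87 CPM in NTB libraries (adjusted p there 0.00294). Eif4ebp1 had -0.78 in brown fat and 1.80 in muscle, at 70.9 to 188 CPM in IgG1 and 22.9 to 51.6 CPM in NTB (adjusted p there 0.00408). Fbxo31, Glul, Prodh and Serpinh1 were among the genes called with the same sign in all 3 tissues. The difference between tissues was not tested, since kit and depth differed with tissue.

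**Figure D5:**
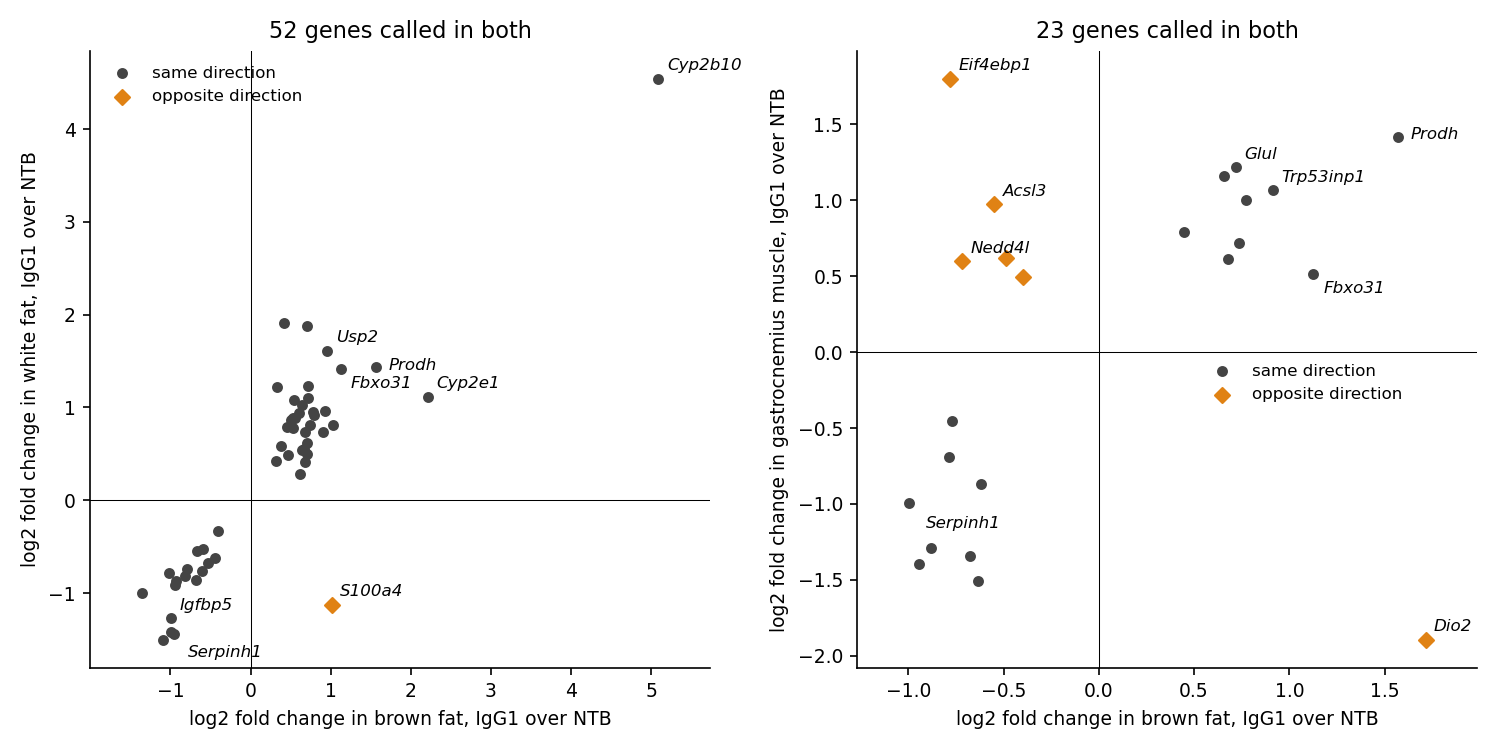
Each point is a gene called in brown fat and also in white fat (left, 52 genes) or gastrocnemius muscle (right, 23 genes), with its log2 fold change of IgG1 over NTB in brown fat on the x axis and in the other tissue on the y axis. Orange diamonds mark opposite signs: S100a4 in white fat, and 6 genes in muscle that include Dio2 (1.72 in brown fat, -1.89 in muscle) and Eif4ebp1 (-0.78 in brown fat, 1.80 in muscle).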

How the data were processed

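Brown fat RNA was prepared with a QuantSeq 3' FWD kit with unique molecular identifiers, per the labels' protocols, and white fat and muscle RNA with TailorMix Directional. The authors deposited raw counts per gene. The submitters' processing notes name Trim Galore, STAR 2.6.0a, featureCounts 1.6.2, edgeR 3.22.3 and build mm9. The annotation, the strand setting and the collapsing of identifiers are not given in the sources used here, so overlapping and antisense genes may share reads.

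The deposited counts were filtered (filterByExpr, minimum count 10, minimum total 15), scaled by TMM and tested with edgeR 4.0.16 in R 4.3.3 (quasi-likelihood F test, Benjamini-Hochberg over all genes tested). IgG1, 3P10 and NTB libraries of a tissue shared 1 fit, with 14 residual degrees of freedom in brown fat and 12 in white fat or muscle. The script was tested on simulated data. The SE of a log2 fold change was not fitted apart: it is the size of the fold change over the square root of the F statistic. It therefore adds nothing to the p-value of the same test. CPM was computed from the counts. Pairs of replicates differed beyond counting error, so each library counted once.

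Named genes were called members of the gene lists (up to 4 a list, most significant first), unpassed members the comparison turns on, and the 15 largest rises and falls among called genes with non-overlapping groups and at least 5 CPM; 24 of the 110 genes with full values were picked outside this rule. Some genes are not reported here. The members and lists were chosen with earlier results of these data known. Alternatives were DESeq2 1.42.0, RLE factors, other filters, a replicate block, IgG1 and NTB libraries alone, a muscle score, counts of Rn45s left out, and leaving out each library. Promoters came from RefSeq (GRCm38.p6), read with Python 3.11.15.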

Additional observations from a re-analysis of the deposited data

Results flagged for a closer look

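In 16 of 214 groups of libraries examined, 1 library stood apart from the others of its group in the CPM of a named gene, where chance alone gives about 1 in 20 groups, or 10.7. IgG1 replicate 2 was that library for 6 genes. It was high for Ucp1 (3220.1 CPM), Cyp26b1 (33.9 CPM), Rbp4 (511 CPM) and Cxcl14 (56.8 CPM), and low for Igfbp4 (122 CPM) and Per1 (10.996 CPM). Beside it, the other IgG1 libraries nearest to it held 2889.5 CPM of Ucp1, 303 CPM of Rbp4, 14.95 CPM of Cxcl14 and 199 CPM of Igfbp4. NTB replicate 4 stood apart for 5 genes, each time as the highest NTB library: Cyp2b10 (26.2 CPM), Fmo1 (223 CPM), Fkbp5 (94.9 CPM), Usp2 (144 CPM) and Ctla2a (45.0 CPM). The next NTB library held 7.39 CPM of Cyp2b10, 20.9 CPM of Fkbp5 and 72.4 CPM of Usp2. NTB replicate 5 was highest for Fabp3 (2260 CPM) and Cdo1 (1999 CPM), NTB replicate 6 was highest for Atp5l (37.7 CPM), NTB replicate 2 was lowest for Cirbp (26.4 CPM), and IgG1 replicate 5 was highest for Shmt1 (52.3 CPM).

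Of the genes called in brown fat, 1 was called with the opposite sign in white fat and 6 in muscle. The named ones are given here, and the difference between tissues was not tested. S100a4 had a log2 fold change of 1.01 in brown fat and -1.13 in white fat. Dio2 had 1.72 in brown fat and -1.89 in muscle. Eif4ebp1 had -0.78 in brown fat and 1.80 in muscle.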

How the results depend on the processing

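In brown fat the count of 259 became 333 with DESeq2, 260 with RLE factors, 272 with no low-count filter, 237 and 258 with filters of at least 1 and at least 10 CPM in 5 libraries, and 259 with Rn45s counts left out. It moved to 154 with IgG1 and NTB libraries alone and to 99 with the muscle score. With 1 library left out it ran from 34 (IgG1 replicate 5, where 73.5% of calls were higher, against 62.5% with all libraries) to 554 (IgG1 replicate 2). With IgG1 replicate 2 and NTB replicate 4 both left out, a choice made after seeing the data, 594 were called, 243 of them among the 259. In white fat, 1245 became 2551 with DESeq2 and 344 to 2354 with 1 library left out. In muscle, 744 became 1326 with DESeq2 and 327 to 1307 with 1 library left out.

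The numbers in the labels did not pair the brown fat libraries: same-numbered IgG1 and NTB libraries deviated from their group means with correlations of -0.05 to 0.05. With the replicate number as a block, the count was 164 for brown fat, 1292 for white fat and 418 for muscle.

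None of the 93 called genes named changed direction under an alternative that gave a value. Of these 93, 93 stayed called with RLE factors, 88 with no filter, 62 with the replicate block and 68 of the 89 tested with IgG1 and NTB libraries alone. DESeq2 called 69 of the 93 and gave the others no adjusted p, so it does not show whether their calls held. At 798886 to 1364639 counts a library, 0 counts allow up to 2.22 to 3.68 CPM on counting error alone.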
